A study of Mus musculus with 2 samples.

Results

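Saa3, Lcn2, Hp, Cp and A2m are acute phase genes, and their RNA was followed in the cells of unwounded and wounded mouse corneas. They were taken by name, as 5 of the 20198 genes of a table of single-cell counts, and each was read in every deposited cell cluster of both libraries. The genes were chosen by their levels in these clusters and libraries, which were known beforehand, so the levels are a description and no test is built on them. The study asked how the cells of the cornea change while an epithelial wound heals. Corneas of male mice aged 6 to 8 weeks were dissociated and sequenced as single cells in droplets. One library came from 4 unwounded mice (UW, 8 corneas), and the other from 4 mice whose central epithelium had been scraped off inside a 2.5 mm trephine mark 24 h earlier (W, 8 corneas). In both groups the epithelial sheet and the remaining tissue were digested apart, and the cells were joined before loading. UW held 16450 cells with a median of 22014 RNA molecules, counted as unique molecular identifiers (UMIs), and W held 12417 cells with a median of 20290.

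Levels are UMIs summed over all cells that a cluster had in 1 library, divided by the total of the sum and scaled to counts per 1000000 (CPM). Exact Poisson limits at 95% stand in parentheses. Differences are log2 ratios of W over UW with an exact binomial 95% interval. As each condition was 1 pooled library, the wound and the library cannot be told apart, no difference has a replicate check and no p-value is given. The intervals cover counting error only. Of the 17 deposited clusters, 10 (1 to 9 and 11) were taken as epithelium and held 13501 UW and 8507 W cells. Of these, cluster 5 was led by genes of conjunctival epithelium, and cluster 7, led by Lce3a, was low in most corneal epithelial markers. Cluster 0 was like corneal stromal cells (CSC-like, led by Kera), with 2369 UW and 1719 W cells. Cluster 10, led by Penk and Myoc, held 565 and 632 cells and is named by its number, since markers of stromal cells and of corneal endothelium were both high in it. Clusters 14 and 15 were like cells of the monocyte lineage and are called monocyte-like for short. Cluster 14 was led by H2-Aa and cluster 15 by Pf4. Cluster 16 was like T cells. Cluster 13 had the highest score for neutrophil markers but few UMIs per cell (median 2509.5), and is also named by its number. Clusters 13 to 16 held 710, 354, 251 and 215 W cells, against 1, 7, 0 and 7 UW cells, so their levels are given for W only. Between the libraries 52 cell barcodes were shared.

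Acute phase proteins are secreted when tissue is injured or infected. The liver is their main source in the blood, and cells of the injured tissue and arriving leukocytes can make them as well. Cytokines of the interleukin 1 (IL-1) type act through NF-kappaB and C/EBP factors on one class of these genes, which includes the serum amyloid A genes. Cytokines of the interleukin 6 (IL-6) type act through STAT3 on another class, which includes haptoglobin. Saa3 encodes serum amyloid A3, a family member made mainly outside the liver. Lcn2 encodes lipocalin 2, which withholds iron from bacteria by binding their siderophores and is also stored in neutrophil granules. Hp encodes haptoglobin, which captures free haemoglobin. Cp encodes ceruloplasmin, a copper enzyme that oxidises iron for transport. A2m encodes alpha-2-macroglobulin, which traps proteases.

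In the unwounded CSC-like cluster Saa3, Lcn2 and Hp were each below 1 CPM, while A2m was among the 10 genes that marked the cluster. Among the W clusters of at least 50 cells, Saa3 and A2m were highest in the CSC-like cluster, Lcn2 and Hp in cluster 13 and Cp in cluster 10. Saa3 and Lcn2 differed between the libraries by more than 100-fold in the CSC-like cluster, and A2m was lower there in W.

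**Figure D1:**
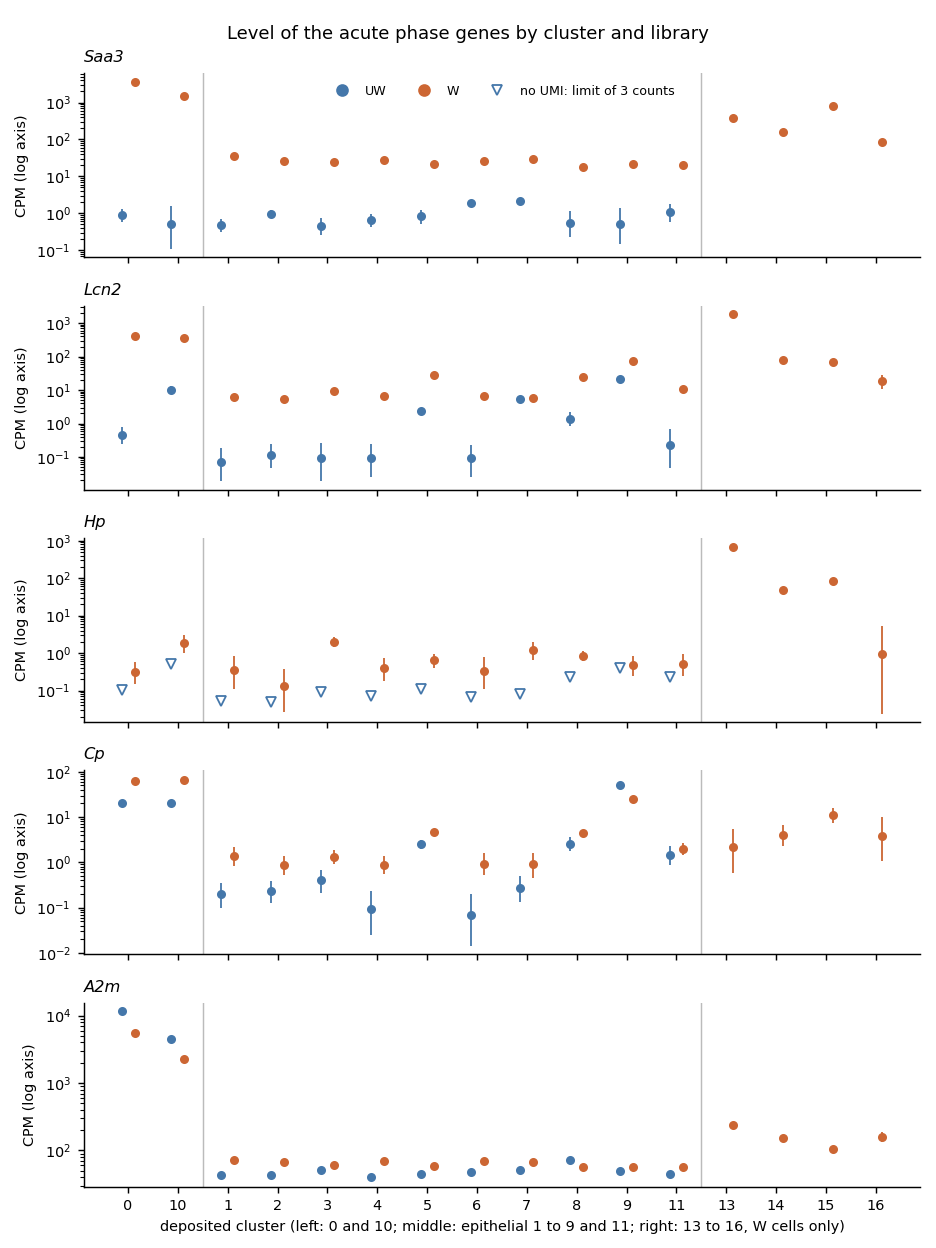
Level of each gene in CPM (log axis) by deposited cluster and library, with points for the sums, bars for exact Poisson 95% intervals and sums without a UMI drawn at the limit of 3 counts. Saa3 in W ran from 18.3 CPM in cluster 8 to 3674 CPM in cluster 0, and Hp had no UMI in any UW sum.

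In the CSC-like cluster, 3 of the 4 members that passed the filter on low levels (Saa3, Lcn2 and Cp) were at least 2-fold higher in W and A2m was at least 2-fold lower, where 4.23% of the 8483 genes that passed were higher and 5.27% lower. Genes at least 100-fold higher in W made up 0.2%. In cluster 10, Saa3, Lcn2 and Cp were at least 2-fold higher and A2m stayed just short of 2-fold lower, against 3.59% and 3.44% of 8653 genes. Over the pooled epithelial clusters, Saa3 and Lcn2 were higher and A2m passed neither limit, against 12.5% and 7.83% of 7456 genes. In cluster 9, Saa3 and Lcn2 were higher and Cp was lower, against 6.65% and 7.01% of 8004 genes. Hp passed the filter in none of these comparisons. As the genes were chosen with these contrasts known, nothing is read from the counts. The median log2 ratio of the genes that passed was -0.13 in the CSC-like cluster and 0.055 in the epithelium. Scaling by trimmed means (TMM) in place of totals would move each log2 ratio by 0.14 in the CSC-like cluster, by 0.11 in cluster 10, by 0.13 in cluster 9, by -0.22 in the epithelium and by -0.38 in cluster 7. It took A2m in the CSC-like cluster to -0.92 and Cp in cluster 9 to -0.94, both short of 2-fold lower.

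**Figure D2:**
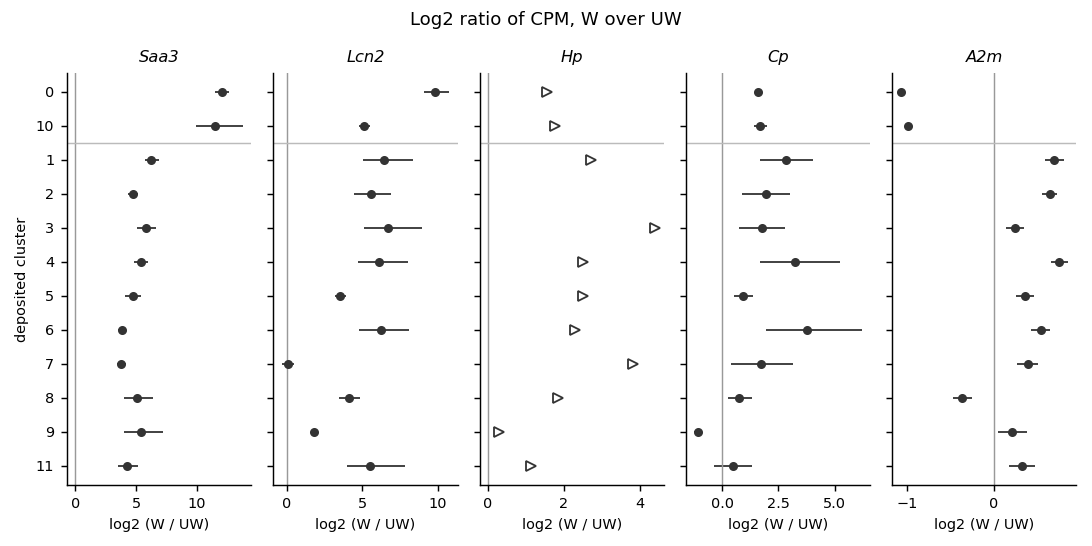
Log2 ratio of CPM in W over UW for each gene by deposited cluster, with exact binomial 95% intervals as bars and lower bounds for Hp as open triangles, with none drawn in cluster 2. Saa3 was higher in W in every cluster shown, with log2 ratios from 3.78 in cluster 7 to 12.03 in cluster 0, and A2m was lower in W in clusters 0, 8 and 10.

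Saa3 lies on chromosome 7 (chr7:46711998-46715700, minus strand, build GRCm38). Its level in the CSC-like cluster was 0.879 CPM in UW (0.569 to 1.30, 25 UMIs) and 3674 CPM in W (3653.5 to 3695, 119231 UMIs), a log2 ratio of 12.03 (11.47 to 12.66). This ratio ranked 6 from the highest among the 8483 genes. Saa3 passed the filter only through W, so the rank is a description. Genes without a UW UMI, where they passed, were ranked above it. In cluster 10 the level was 0.525 CPM in UW (0.108 to 1.54, only 3 UMIs) and 1525 CPM in W (1498 to 1551), a log2 ratio of 11.50 (9.96 to 13.78). Serum amyloid A3 RNA thus had the largest ratio in both clusters among the members with a ratio, as Hp, without a UW UMI, allowed bounds only. In W the monocyte-like cluster 15 had 803 CPM (769 to 837), cluster 13 had 385 CPM (357 to 415) and the monocyte-like cluster 14 had 164 CPM (151 to 177). The T-like cluster 16 had 85.6 CPM (68.8 to 105). The intervals of these 6 W clusters did not overlap. In the 10 epithelial clusters Saa3 lay between 0.458 and 2.12 CPM in UW and between 18.3 and 36.5 CPM in W, and every epithelial cluster in W was below the T-like cluster. Among these clusters in W cluster 1 had the highest level, but after thinning to 5000 UMIs per cell 1 cell held 20.8% of its Saa3 UMIs, and its share of cells with a UMI (13.5%) had an interval that overlapped those of clusters 2 and 7 (15.2% each). The intervals of the next neighbours overlapped.

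The 226 bases just before the Saa3 gene (chr7:46715701-46715926, minus strand, RefSeq promoter table of GRCm38.p6) are shown because Saa3 had the largest ratio and because they hold a match, in capitals and on the opposite strand, to the C/EBP motif TTGCNNAA:

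Saa3: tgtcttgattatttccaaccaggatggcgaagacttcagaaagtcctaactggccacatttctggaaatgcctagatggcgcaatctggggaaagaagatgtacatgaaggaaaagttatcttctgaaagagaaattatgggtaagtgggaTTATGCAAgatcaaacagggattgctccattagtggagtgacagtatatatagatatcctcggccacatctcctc

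Matches to the same motif were found in the Lcn2 window (chr2:32387937-32387966, minus strand) and in 1 of the windows of Cp (chr3:19957168-19957197, plus strand), where the Cp match lies on the opposite strand. Both lie inside annotated exons, and 30 bases around each are shown with the match in capitals:

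Lcn2: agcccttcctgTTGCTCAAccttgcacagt

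Cp: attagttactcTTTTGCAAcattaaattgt

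Windows of 250 bases before a start were at hand for 3 of the 5 genes, as 4 windows, and both strands were searched. Counted from the transcript start at which each window ends, the match began at position -99 for Saa3, at -216 for Lcn2 and at -70 for Cp. These starts lie inside the annotated genes, so the matches of Lcn2 and Cp lie downstream of the first base of the gene. The motif occurred in 9.56% of 32851 windows of all genes. No match was found in the members' windows to the STAT motifs TTCCNGGAA and TTCNNNGAA, which occurred in 0.913% and 7.02% of all windows and of which the latter holds every match of the former, or to the NF-kappaB motif (3.90%). A match is a description of letters and not a binding site, and no match says only that these letters are not in the window.

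Saa3 RNA was spread unevenly over the stromal cells. Of the CSC-like cells in W, 67.3% held at least 1 Saa3 UMI, against 1.06% in UW, and median depths were 17588 and 11853 UMIs. With every cell thinned to 5000 UMIs the shares were 51.3% and 0.302%. Per thinned W cell the median was 1 Saa3 UMI, the upper quartile 20 and the maximum 307. The 10% of cells with most Saa3 held 60.5% of its UMIs, 33.1% of cells had 10 or more, and 5.09% had 100 or more. In cluster 10, 36.6% of thinned W cells held a Saa3 UMI and the top 10% held 80.3% of them, so the RNA was more concentrated there. In the monocyte-like cluster 15, thinned to 2000 UMIs, 23.9% of cells held a UMI and the top 10% held 88.6% of them. The 26 cells with most averaged 13.4 Saa3 UMIs against 0.2 in the rest. Those 26 cells held 1.23 UMIs of the keratocyte markers Kera, Lum, Dcn, Col1a1 and Col1a2 on average, against 1.46 in the other cells of the cluster. In cluster 14 the 30 cells with most Saa3 held 3.03 against 1.51, and the part of these markers in its level was not tested.

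**Figure D3:**
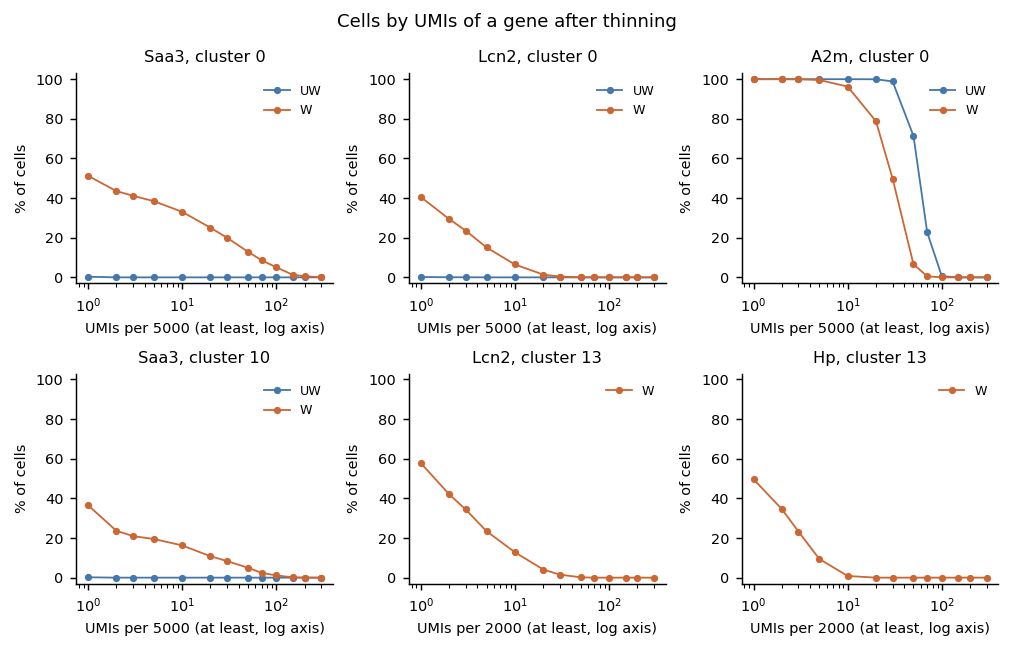
Percent of cells (vertical axis) that held at least a given number of UMIs of a gene (horizontal axis, log scale), by library, after thinning to 5000 UMIs per cell (2000 in cluster 13, which is shown for W). Saa3 in the CSC-like cluster of W reached 10 or more UMIs in 33.1% of cells, while A2m reached 10 or more in 96.3%.

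In the epithelium of W 45.7% of cells held a Saa3 UMI at a median depth of 25553 UMIs, and 27.9% of T-like cells, taken here as cells that should lack the gene, at a median of 4411. With cells of both thinned to 2000 UMIs, the shares were 5.44% of epithelial cells (exact binomial interval 4.97 to 5.95) and 14.6% of T-like cells (10.1 to 20.2). The epithelial share was thus not above that of the T-like cells. At this depth A2m, highest in the CSC-like cluster, was also found in fewer epithelial cells (12.6%) than T-like cells (28.8%). Neither expression of Saa3 by epithelial cells nor its absence is therefore read from these shares. For each 1000 keratocyte marker UMIs in the same cells, Saa3 had 94.9 UMIs in the CSC-like cluster, 64.4 to 85.9 in the epithelial clusters and 78.8 in the T-like cluster of W. The ratio was higher in cluster 14 (172), cluster 13 (235) and cluster 15 (1241).

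**Figure D4:**
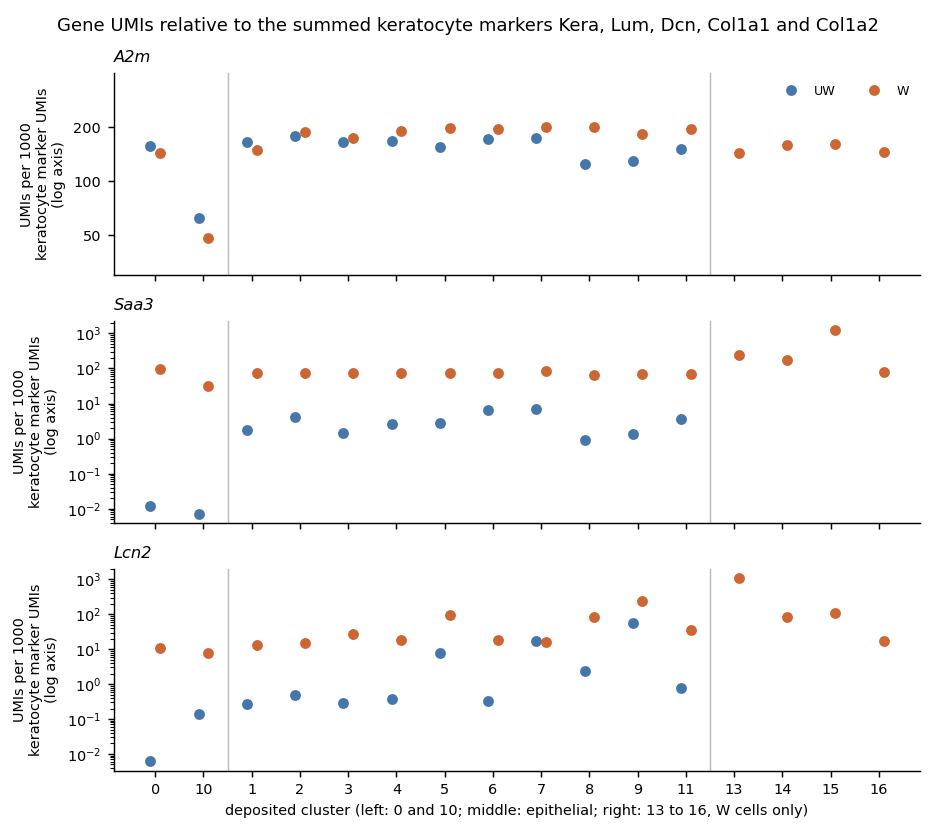
UMIs of each gene per 1000 UMIs of 5 keratocyte marker genes (log axis) by deposited cluster and library. A2m stayed between 126 and 201 in all clusters shown but cluster 10, while Saa3 in cluster 15 (1241) and Lcn2 in clusters 9 (243) and 13 (1115) of W stood above the CSC-like cluster (94.9 and 10.97).

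Lcn2 lies on chromosome 2 (chr2:32384633-32388252, minus strand). In the CSC-like cluster it was 0.457 CPM in UW (0.243 to 0.782, 13 UMIs) and 425 CPM in W (418 to 432, 13789 UMIs). The log2 ratio was 9.86 (9.09 to 10.77) and ranked 9 among the genes. Lcn2 too passed the filter only through W there, so this rank is a description as well. In cluster 10 it was 10.3 CPM in UW (7.86 to 13.3), from 59 UMIs in 19 cells, and 368 CPM in W (355 to 381), a log2 ratio of 5.15 (4.78 to 5.55). Lipocalin 2 RNA was therefore far apart between the libraries in both clusters. The highest level of all was in cluster 13 of W, at 1829 CPM (1768 to 1892). The monocyte-like clusters 14 and 15 had 79.2 CPM (70.4 to 88.9) and 68.6 CPM (59.1 to 79.2), with overlapping intervals, and the T-like cluster had 18.3 CPM (11.01 to 28.6).

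Unlike Saa3, Lcn2 differed widely among the epithelial clusters. Cluster 9, led by Wfdc18 and Dlk2, had it already in UW, at 21.4 CPM (18.2 to 24.95) with UMIs in 15.4% of cells, and had 75.5 CPM in W (72.1 to 79.0) with UMIs in 47.3% of cells, a log2 ratio of 1.82 (1.59 to 2.06). With every cell thinned to 2000 UMIs its shares were 3.68% in UW (2.23 to 5.68) and 10.5% in W (8.60 to 12.6), against 2.93% in the T-like cluster of W (1.08 to 6.26), so the W share stood above the T-like share. UW had too few T-like cells for a share of its own, and its other epithelial clusters lay between 0 and 0.797%. In the 10% of cells with most Lcn2, thinned to 5000 UMIs, S100a8 and S100a9 together had 3 UMIs on average against 1.24 in the other cells of cluster 9 in W, and 0.471 against 0.0352 in UW, and their part in the Lcn2 level was not tested. Cluster 5 had 2.34 CPM in UW and 27.6 CPM in W, and cluster 8, led by mitotic genes, had 1.41 CPM and 24.6 CPM. In UW the level of cluster 5 came from 8 cells, 1 of which held 76.5% of the thinned UMIs. In cluster 7 Lcn2 was 5.26 CPM in UW (4.54 to 6.06), from 31 cells, and 5.61 CPM in W (4.35 to 7.12), from 58 cells. The log2 ratio was 0.092 (-0.33 to 0.50), and the intervals of the levels overlapped. The other 6 epithelial clusters were at or below 0.231 CPM in UW and between 5.51 and 10.7 CPM in W. Per 1000 keratocyte marker UMIs in W, Lcn2 had 10.97 UMIs in the CSC-like cluster and 16.8 in the T-like cluster, 12.9 to 36.4 in these 6 clusters and cluster 7, and 86.5, 94.2 and 243 in clusters 8, 5 and 9.

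Within the CSC-like cells of W, 40.6% held an Lcn2 UMI after thinning, against 0.173% in UW. Cells with Saa3 held Lcn2 in 47.5% of cases and cells without Saa3 in 33.3%. Over 1708 thinned cells of the single W library, the Spearman correlation of both genes was 0.20, which was weak although Lcn2 was among the 5 genes of 683 closest to Saa3 in this measure, after Fth1 (0.21) and Sod2 (0.20). At the other end for Saa3 stood Tkt (-0.18), Sparc (-0.18) and the keratocan gene Kera (-0.16). In cluster 13, Lcn2 was found in 57.9% of thinned cells and ran with Il1rn (0.43), Fth1 (0.36) and Sod2 (0.33) over 584 cells.

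Hp lies on chromosome 8 (chr8:109575128-109579172, minus strand). No Hp UMI was found in any UW cluster, and 0 of 13501 epithelial cells allows a share of cells with an Hp UMI of up to 0.0222% (a limit of 3 cells, for counting error only). In W, Hp was at 672 CPM in cluster 13 (635 to 710, 1233 UMIs), where 50.1% of cells held it. Haptoglobin RNA was thus found mainly in clusters with leukocyte markers, as the next levels were 84.5 CPM in cluster 15 (73.9 to 96.2) and 46.9 CPM in cluster 14 (40.2 to 54.5). The T-like cluster held 1 UMI. In the epithelium of W it was 0.695 CPM (0.593 to 0.809), at least 77.1-fold higher than in UW by the limit of 3 counts (log2 ratio of at least 6.27, or 3.77 with cells thinned), and in the CSC-like cluster it was 0.308 CPM (0.148 to 0.567, 10 UMIs), at least 2.92-fold higher. Among epithelial clusters in W the highest was cluster 3, at 1.95 CPM (1.42 to 2.62), from 44 UMIs in 23 cells.

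The neutrophil markers S100a8, S100a9, Csf3r, Retnlg, Cxcr2 and Mmp9 were also found outside cluster 13, and their part in the low Hp levels was not tested. S100a8 and S100a9 alone, summed, made up 33575 CPM in cluster 13, 697 CPM in the epithelium and 87.5 CPM in the CSC-like cluster of W. For each 1000 UMIs of S100a8 and S100a9 together, Hp had 20.01 UMIs in cluster 13, 64.7 in cluster 14 and 269 in cluster 15. In the epithelium it had 0.997. Lcn2 had 54.5 UMIs per 1000 in cluster 13 and, in W, 4859 in the CSC-like cluster, 2502 in cluster 10 and 215 in cluster 9. The other 9 epithelial clusters of W were below cluster 13, with 39.6 in cluster 5, 38.3 in cluster 8 and 5.25 to 17.1 in the rest. In cluster 13, Hp ran with Ifitm1 (Spearman correlation 0.38), S100a8 (0.37) and S100a9 (0.35) over 584 cells and was lowest against Bcl2a1b (-0.35) and Il1rn (-0.31). Ifitm1 was at the other end for Lcn2 (-0.33), and the correlation of Hp with Lcn2 was -0.062. All these cells share 1 library.

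Cp lies on chromosome 3 (chr3:19957054-20009145, plus strand) and overlaps Hps3 on the other strand. In the CSC-like cluster it was 20.7 CPM in UW (19.0 to 22.4, 588 UMIs) and 61.9 CPM in W (59.3 to 64.7, 2010 UMIs), a log2 ratio of 1.58 (1.45 to 1.72). In cluster 10 it was 20.3 CPM in UW (16.8 to 24.4) and 65.3 CPM in W (59.9 to 71.0), a log2 ratio of 1.68 (1.39 to 1.99). Ceruloplasmin RNA was close to 3-fold higher in W in both clusters, and their levels overlapped within each library. Thinned, the share of cells with a Cp UMI was 8.97% in UW and 22.8% in W for the CSC-like cluster, and 8.59% and 22.1% for cluster 10.

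Cluster 9 went the other way. Cp was 52.0 CPM there in UW (47.0 to 57.4, 396 UMIs), the highest UW level of the gene, and 24.7 CPM in W (22.8 to 26.7, 615 UMIs), a log2 ratio of -1.07 (-1.26 to -0.89). The thinned share of cells with a UMI was 22.2% in UW and 10.7% in W. The cells of cluster 9 numbered 521 in UW and 956 in W, with median depths of 13944 and 24009 UMIs, and the part of that change in the level was not tested. The other 9 epithelial clusters lay between 0.0689 and 2.58 CPM in UW and between 0.874 and 4.76 CPM in W. For each 1000 keratocyte marker UMIs, Cp had 0.277 UMIs in the CSC-like cluster of UW and 137 in cluster 9. In W the monocyte-like cluster 15 had 11.1 CPM (7.47 to 15.8), and clusters 13, 14 and 16 had 2.18, 4.07 and 3.85 CPM with overlapping intervals.

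A2m lies on chromosome 6 (chr6:121635376-121679227, plus strand). In the CSC-like cluster it was 11709.6 CPM in UW (11669.8 to 11749) and 5599 CPM in W (5574 to 5625), a log2 ratio of -1.06 (-1.07 to -1.06) or 2.09-fold lower in W. In cluster 10 it was 4512 CPM in UW (4457 to 4568) and 2278 CPM in W (2246 to 2311), a log2 ratio of -0.99 (-1.01 to -0.96). Alpha-2-macroglobulin RNA was thus present in both clusters before wounding, and every CSC-like cell of both libraries held it. Thinned to 5000 UMIs, the median CSC-like cell held 58 A2m UMIs in UW and 29 in W. The 10th and 90th percentiles were 41 and 78 in UW and 14 and 46 in W. In UW 71.4% of these cells held 50 or more, and in W 6.62%, so the difference lay across the cells and not in a few of them.

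The keratocyte marker Kera was lower in the CSC-like cluster of W as well, at 7482 CPM in UW and 2537 CPM in W. For each 1000 keratocyte marker UMIs A2m had 157 UMIs in UW and 145 in W, so it was lower in nearly the same proportion as those markers. Over the 1708 CSC-like cells of W the Spearman correlation of A2m with Kera was 0.47, while that with Saa3 was 0.0060. In the epithelial clusters A2m lay between 40.7 and 73.5 CPM in UW and between 57.1 and 71.2 CPM in W. Per 1000 keratocyte marker UMIs it had 126 to 178 UMIs in the UW and 149 to 201 in the W epithelial clusters, and 145 to 161 in clusters 13 to 16 of W, close to the CSC-like ratio. The largest epithelial log2 ratio was 0.76 in cluster 4 and the lowest -0.36 in cluster 8, while that of cluster 7 (0.39) turned to -0.013 with median-of-ratios scaling.

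Other genes of the acute phase response were read from fixed lists. Of 13 genes mainly induced by IL-1 type cytokines 9 were in the table, and 4 passed in the CSC-like cluster (Saa3, Lcn2, Saa1 and Saa2). All 4 were below 1 CPM in UW and passed only through W, so the filter fixed their direction, and Saa3 and Lcn2 are members, so no count or median is read from them. Saa1 was 0.211 CPM in UW and 126 CPM in W, and Saa2 was 0.0703 CPM (2 UMIs) and 65.2 CPM. These relatives are uncertain, since 13.2% of the stretches of 50 bases in Saa1 transcripts also occur in Saa2 and 1.61% in Saa3. Of the stretches of Saa3, 0.352% occur in Saa1, and the longest that Saa1 and Saa3 share has 58 bases. Of 20 genes mainly induced by IL-6 type cytokines 14 were in the table and 7 passed. Of these, Cp and A2m are members and Serpina3n and Lbp (2.99 CPM in UW) passed only through W, so no count or median is read from this list either. Serpina3n, an inhibitor of serine proteases, was 1.65 CPM in UW and 314 CPM in W, and the metallothionein genes Mt1 and Mt2 had log2 ratios of 1.91 and 2.51. Lbp had 1.77, and Serping1 had -0.093, which TMM scaling would turn positive.

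In cluster 10, 5 IL-1 type genes passed, of which Saa3, Saa1, C3 and Ptx3 did so only through W, so that their direction is no finding. C3 was 1.75 CPM in UW and 14.4 CPM in W there, and Ptx3 was 1.93 CPM and 11.8 CPM. Of 7 IL-6 type genes in cluster 10, Cp and A2m are members. Of the other 5, Serpina3n, Mt2 (log2 ratio 1.68), Mt1 (1.20) and Lbp (1.04) were at least 2-fold higher, against 3.59% of all genes tested, and Serping1 was at 0.099. Serpina3n was 37.5 CPM in UW and 1040.0 CPM in W there. In the epithelium Saa3 and Lcn2, both members, were the IL-1 type genes that passed, and both did so only through W. Per 1000 keratocyte marker UMIs of the pooled epithelium in W, Saa3 had 72.1 UMIs and Lcn2 64.1, against 78.8 and 16.8 in the T-like cluster. Of the 5 IL-6 type genes that passed in the epithelium, Serpina3n was 0.270 CPM in UW and 11.1 CPM in W and Serping1 was 6.79 CPM and 16.5 CPM. Both passed only through W, so that their direction is no finding, and Mt2 (0.71) and Mt1 (0.16) stayed below 2-fold. Of the negative acute phase genes, which the liver makes less of in the acute phase, 1 passed in the CSC-like cluster (Trf, 0.21) and none in the epithelium.

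**Figure D5:**
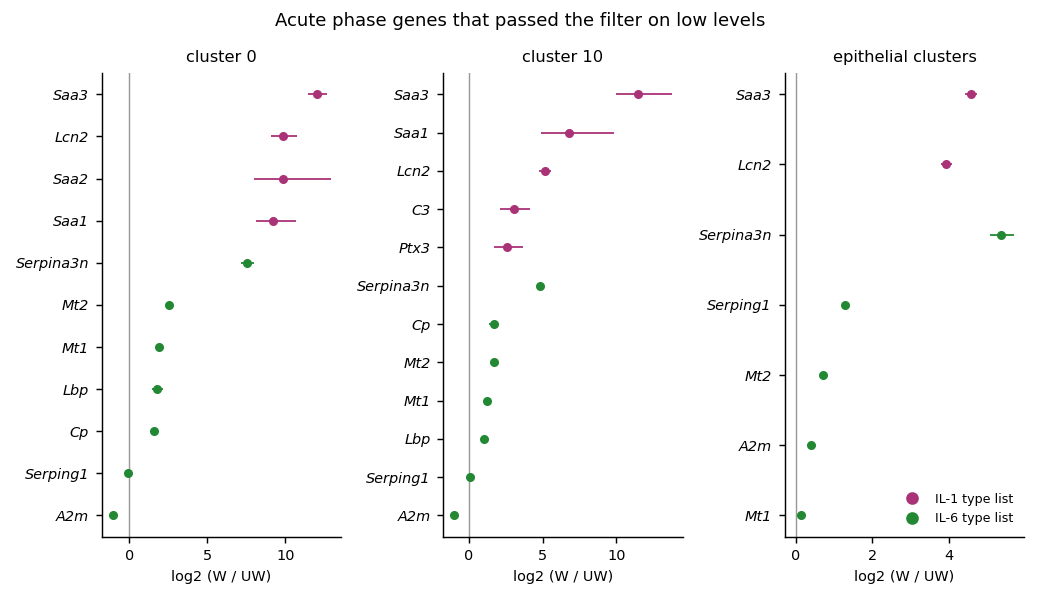
Log2 ratio of W over UW (horizontal axis) of each gene of the fixed lists that passed the filter (1 row per gene), for the CSC-like cluster 0, cluster 10 and the epithelial clusters summed, with exact binomial 95% intervals as bars and colours for the lists. Serpina3n had log2 ratios of 7.57, 4.79 and 5.36 in the 3 panels, while Serping1 had -0.093, 0.099 and 1.28.

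Genes that act with the members were read from fixed lists too. Of 12 receptors and partners, 3 passed in the CSC-like cluster. Slc22a17, a lipocalin 2 receptor, was 60.0 CPM in UW and 23.7 CPM in W, Tlr2, a receptor for serum amyloid A, had a log2 ratio of 1.10, and Lrp1, the clearance receptor of alpha-2-macroglobulin complexes, had 0.0031. None of 4 passed 2-fold in the epithelium, where 12.5% of all genes tested were higher and 7.83% lower. Of 13 iron genes that passed in the CSC-like cluster, 2 were higher, against 4.23% of all genes tested. These 2 were Hmox1, which breaks down haem, at 20.3 and 256 CPM, and the iron importer Slc11a2 at 14.2 and 37.3 CPM. With TMM scaling Steap4 joined them (from 0.87 to 1.01). In the epithelium 9 iron genes passed, with Ftl1 higher and Slc11a2 and Ncoa4 lower, against 12.5% and 7.83% of all genes tested. Of the relatives of the members, 5 passed in the CSC-like cluster, where only Saa1 and Saa2 were higher. In the epithelium Cd109, a relative of A2m, was lower, with a log2 ratio of -1.64.

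Of the list of inducing cytokines, none passed the filter in the CSC-like cluster, and Il1b (2736 CPM), Tnf (345 CPM), Il1a (271 CPM) and Osm (133 CPM) were highest in cluster 13 of W. Il17a (130 CPM) and Il17f (46.2 CPM) were highest in the T-like cluster of W and Lif in cluster 9 of UW (23.9 CPM). Receptors of these cytokines passed the filter in the CSC-like cluster in 7 cases. Il1r1 (3.90 CPM in UW and 15.01 in W) and Il17ra (3.23 and 10.6 CPM) passed only through W. Of the other 5, Osmr (12.9 CPM in UW and 36.4 in W), Il6st (log2 ratio 1.17) and Tnfrsf1a (1.09) were at least 2-fold higher, against 4.23% of all genes tested, while Il17rc was at 0.81 and Il11ra1 at -0.23. In the epithelium 1 of 7 was higher (Tnfrsf1a, 1.15), against 12.5% of all genes tested, and with TMM scaling it was at 0.93 and short of 2-fold, while Lifr went from -0.93 to -1.15. Of 8 induced transcription factors and feedback genes in the CSC-like cluster, Nfkbia (1.65), Cebpd (1.51) and Nfkbiz (1.01) were at least 2-fold higher. Socs3 (-1.34) was lower. Of all genes tested there, 4.23% were higher and 5.27% lower. Bcl3 went from 0.94 to 1.08 with TMM scaling. In the pooled epithelium none of the 8 was at least 2-fold higher and Socs3 was lower, at 243 and 69.1 CPM. The shares of all genes tested there were 12.5% higher and 7.83% lower. Single epithelial clusters differed widely. The log2 ratio of Nfkbiz ran from -0.085 in cluster 9 to 2.03 in cluster 6, that of Cebpd from -0.84 in cluster 9 to 1.82 in cluster 7, that of Nfkbia from -1.08 in cluster 7 to 1.49 in cluster 6 and that of Socs3 from -3.39 in cluster 11 to -0.13 in cluster 6. The pool mixes clusters whose cell numbers differed between the libraries, and Tnf had a log2 ratio of -1.25 in the pool and -1.44 in cluster 7, but 2.60 in cluster 2 and 2.17 in cluster 6. Il1a had 0.94 in the pool, with single clusters from 0.50 in cluster 7 to 3.52 in cluster 3.

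Over the 28 sums of at least 50 cells, the levels of the members on the log2(CPM + 1) scale fell into different patterns, given as a description since sums share their libraries and neighbouring clusters. Of 6223 genes, those most like Saa3 were the chemokine gene Ccl8 (Pearson r 0.94), Timp1 (0.93) and Cxcl9 (0.92), followed by Ccl2 (0.90) and Ccl7 (0.89). Lcn2 was most like Timp1 (0.87), Fas (0.86), Serpina3n (0.85), Slc7a11 (0.85) and Nfkbia (0.85). Hp was most like Cd300lf, Arg2, Csf3r, Trem1 and Wfdc21, all at 0.99, of which Csf3r encodes the receptor of a neutrophil growth factor. Cp was most like Rnase4 (0.96), Ang (0.95), Gpha2 (0.93), Tgfb2 (0.92) and Anpep (0.91). A2m was most like Dkk2, Col5a2, Sparcl1, Aqp1 and Dpt, at 0.99 or more. Between the members themselves r was highest for Saa3 with Lcn2 (0.84) and lowest for Hp with A2m (0.077).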

How the data were processed

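Per the labels and the methods of the study, cells were captured with droplet chemistry and 3' tags, reads were processed by the authors with Cell Ranger 3.1.0, and cells were filtered, clustered and cleared of doublets with Seurat and a doublet caller. The version of the chemistry and the genome build differ between the labels and the methods, and gene positions here are those of GRCm38. The deposited values used are raw UMI counts per gene and cell with the deposited clusters. Each condition was 1 library, so the groups were compared without a test.

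Counts were summed per cluster and library and divided by the total. A gene entered a count of genes past 2-fold with at least 20 UMIs over both sums and 10 CPM in 1 of them. A sum of 0 was set to 3 counts for bounds. Thinning drew 5000 UMIs per cell (2000 in clusters 13 to 17) and left out shallower cells. Members and gene lists were chosen with earlier results of these data known. Named beside the members were the 3 genes of each list with the largest and the 3 with the smallest ratio that reached 10 CPM in some sum, those of a count of 5 or fewer, and the 5 genes of highest r with at least 50 CPM in some sum. S100a8, Kera and the genes named for correlation over cells, and the list genes named in cluster 10, were chosen after their values were seen. The markers of a cluster were fixed lists for 9 cell types and for hepatocytes, of which 1 of 4 genes was in the table.

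Alternatives were TMM (edgeR 4.0.16) and median-of-ratios scaling (DESeq2 1.42.0, R 4.3.3), a stricter cell filter, cells without the 469 doublets of a first run of the authors, equal weights for cells and thinning. Thinning of every cluster to 2000 UMIs and TMM scaling of the list genes were added after the data were seen. Python 3.11.15, numpy 2.4.6, pandas 2.3.3, scipy 1.17.1 and matplotlib 3.10.9 were used, and the ratios were tested on simulated data. Of the 20198 genes 19908 matched the annotation by symbol. One result for a gene of a fixed list is not reported here.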

Additional observations from a re-analysis of the deposited data

Results flagged for a closer look

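Cp and A2m had ratios of opposite sign in different clusters, and these differences were not tested, since each condition was 1 library. For Cp the log2 ratio of W over UW was 1.68 in cluster 10 and -1.07 in cluster 9. For A2m it was 0.76 in the epithelial cluster 4 and -1.06 in the CSC-like cluster.

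Cluster 17 entered no comparison because it held 29 cells, all from W. It was led by Cxcl9 and by genes that also led cluster 13, and markers of stromal cells and of neutrophils were both high in it. Its levels were 4392 CPM for Saa3 (4216 to 4573), 681 CPM for Lcn2 (613 to 755), 65.7 CPM for Hp (45.7 to 91.3), 95.7 CPM for Cp (71.2 to 126) and 6161 CPM for A2m (5952 to 6375). Saa3, Cp and A2m were thus higher there than in any larger W cluster, with the intervals of Cp just clear of those of cluster 10.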

How the results depend on the processing

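No paired analysis was possible because each condition was 1 library and the labels number no replicates. The log2 ratios of Saa3, Lcn2, Cp and A2m in the epithelium, the CSC-like cluster and cluster 10 kept their direction in the 6 alternatives, and the bounds of Hp stayed above 0 in the 4 or 5 that gave one. TMM and median-of-ratios scaling gave, in the epithelium, 4.35 and 4.33 for Saa3, 3.71 and 3.70 for Lcn2, 1.28 and 1.26 for Cp and 0.18 and 0.17 for A2m. They gave 1.73 and 1.76 for Cp and -0.92 and -0.89 for A2m in the CSC-like cluster, and -0.87 and -0.87 for A2m in cluster 10. Thinning gave, in the epithelium, 4.95 for Saa3, 3.25 for Lcn2, 3.77 for the bound of Hp, 0.88 for Cp and 0.52 for A2m. It gave -0.97 for A2m in the CSC-like cluster, and 5.61 for Lcn2, 0.56 for the bound of Hp and -0.94 for A2m in cluster 10. Equal weights for cells gave 3.27, 0.94 and 0.55 for Lcn2, Cp and A2m in the epithelium, and -0.96 and -0.89 for A2m in the CSC-like cluster and cluster 10. The stricter cell filter gave 1.83 for Cp in the epithelium, and 5.66 and -1.16 for Lcn2 and A2m in cluster 10. Saa3 lay between 11.99 and 12.58 in the CSC-like cluster and between 11.50 and 12.82 in cluster 10, where the stricter cell filter gave the highest value. A2m in the CSC-like cluster was short of 2-fold lower in 4 of the 6 alternatives, and Cp in cluster 9 in 3 (TMM -0.94, median-of-ratios -0.95, stricter cell filter -0.93). Without the first-run doublets A2m in the CSC-like cluster was at -1.05. The cause of these moves was not tested. In single clusters 3 ratios changed sign: Lcn2 in cluster 7 (-0.31 to 0.25), Cp in cluster 8 (-0.30 to 0.87) and A2m in cluster 7 (-0.013 to 0.57).

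Genes at least 2-fold higher numbered 931 in the epithelium, 359 in the CSC-like cluster and 311 in cluster 10, and lower 584, 447 and 298. With no filter on CPM they were 5181, 2752 and 2435 higher and 2364, 2806 and 2541 lower, and with at least 100 UMIs and 50 CPM 326, 171 and 134 higher and 293, 160 and 83 lower. TMM scaling gave 953 lower in the epithelium. Depth in UW limits what can be said of some members: the Saa3 ratio of cluster 10 rests on 3 UMIs, and Hp allows bounds only.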
